A study of Mus musculus with 10 samples.

Results

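The genes described here encode small heat shock proteins (sHSPs) and the chaperones that act with them, namely *Hspb1*, *Hspb2*, *Hspb3*, *Hspb6*, *Hspb7*, *Hspb8*, *Cryab*, *Bag3*, *Hspa8* and *Hsp90aa1*. They were taken by symbol from a list of this gene group, drawn up with earlier results of these data known, and make up 10 of the 55359 genes in the deposited table. All 10 had a mean level of at least 0.5 FPKM (fragments per kilobase of transcript scaled to library size, a level per length) over the libraries, as did 13548 genes in all, which were the genes tested. The cells were C2C12 mouse myoblasts, an established cell line that fuses into multinucleated myotubes when serum is reduced, and so a single clonal line in culture. They received either a negative control siRNA (si-Control, n = 5 libraries) or an siRNA that targets *Fndc1* (si-*Fndc1*, n = 5), at 100 nM per the labels. By the labels both groups were grown in 20% fetal bovine serum, moved to 2% horse serum and collected on day 4 of differentiation. The series description gives 48 h after transfection, and the study's culture methods give a lower percentage of fetal bovine serum for growth. *Fndc1* encodes a secreted protein with fibronectin type III domains, and the comparison asked how its knockdown changed the transcriptome of differentiating myoblasts. The study's methods state in general that experiments were repeated independently, but no source used here says of these libraries whether the 5 of a group came from separate cultures, so that the p-values measure only the spread between them.

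sHSPs are chaperones that work without ATP. They share a conserved alpha-crystallin domain, form oligomers, and hold unfolding proteins in a state from which they can be refolded or degraded. HSP70 proteins such as HSC70 and HSP90 proteins use ATP to fold or mature their clients, and BAG3 links the sHSP HSPB8 to HSC70 and to the autophagic removal of damaged filament proteins at the Z-disc of striated muscle. Several sHSPs are abundant in skeletal muscle, where CRYAB and HSPB1 bind desmin and actin filaments, and mutations in CRYAB, HSPB8 or BAG3 cause myofibrillar or distal myopathies in humans. The heat shock factor HSF1 induces many chaperone genes through heat shock elements, inverted repeats of a short unit in the promoter.

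Promoter windows of 250 bases ending at the transcription start were available from RefSeq (GRCm38.p6) for 6 of the 10 genes, in 7 windows, since *Hspb6* had 2. *Cryab*, *Hspb2*, *Hspa8* and *Hsp90aa1* had no entry. Each window was searched for the heat shock element in its form with 2 inverted units (GAANNTTC or TTCNNGAA, each its own reverse complement, so that both strands are covered), with 3 units (GAANNTTCNNGAA or TTCNNGAANNTTC), and for the E-box CANNTG, the core letters bound by myogenic factors such as MyoD. The element with 2 units occurred in 3 of the 7 windows, from the 3 genes *Hspb1*, *Hspb3* and *Hspb6*, against 12.8% of all 32851 windows in the reference. The 3 windows that held it are printed because they show where the heat shock letters lie in these genes, with the element in capitals.
Hspb1, chr5:135887669-135887918, plus strand: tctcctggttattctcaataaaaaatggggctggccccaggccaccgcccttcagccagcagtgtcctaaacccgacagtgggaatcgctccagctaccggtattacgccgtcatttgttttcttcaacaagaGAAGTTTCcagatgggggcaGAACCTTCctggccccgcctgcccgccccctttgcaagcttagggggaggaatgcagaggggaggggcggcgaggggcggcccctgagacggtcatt
Hspb3, chr13:113663677-113663926, minus strand: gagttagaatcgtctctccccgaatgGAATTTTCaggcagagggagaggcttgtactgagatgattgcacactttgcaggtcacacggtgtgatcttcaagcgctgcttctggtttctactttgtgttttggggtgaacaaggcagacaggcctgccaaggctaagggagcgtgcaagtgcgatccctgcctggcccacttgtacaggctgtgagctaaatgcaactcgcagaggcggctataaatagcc
Hspb6, chr7:30553051-30553300, plus strand: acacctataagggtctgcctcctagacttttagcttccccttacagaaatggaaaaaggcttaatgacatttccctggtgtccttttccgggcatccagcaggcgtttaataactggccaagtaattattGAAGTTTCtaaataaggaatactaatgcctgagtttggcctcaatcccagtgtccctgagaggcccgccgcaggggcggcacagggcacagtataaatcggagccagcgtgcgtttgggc
In *Hspb1* the element occurred 2 times, beginning 117 and 97 bases upstream of the start. In the window of *Hspb6* printed here it began 120 bases upstream, and the other window of this gene did not hold it. In *Hspb3* it began 224 bases upstream. The form with 3 units was in 0 of the 7 windows, against 0.466% of all windows. The E-box letters were in 4 of the 7 windows, those of *Hspb1*, *Hspb3*, *Hspb7* and *Hspb8*, against 66.2% of all windows, and none of them overlapped a heat shock element. These matches are a description of letters and carry no statement on binding.

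The si-Control libraries held 66771605 to 75995168 counts and the si-*Fndc1* libraries 56332844 to 72839369, and the 10 genes took 0.219% to 0.244% and 0.236% to 0.279% of them. *Fndc1* itself had 26.7, 24.7, 28.7, 29.6 and 29.2 FPKM in si-Control libraries 1 to 5 and 20.4, 23.5, 20.8, 21.1 and 18.7 FPKM in si-*Fndc1* libraries 1 to 5. All si-*Fndc1* libraries were below all si-Control libraries, with a fold of 0.757 (log2 fold change -0.40, SE 0.07, adjusted p = 0.000934 by edgeR's quasi-likelihood test), so that most of the transcript remained. With each library's trends with GC content and transcript length removed, the log2 fold change of *Fndc1* was -0.22 (adjusted p = 0.0104, edgeR). All 22 markers of myoblasts and myotubes were detected, at summed levels of 7630.5 to 8074.0 FPKM in si-Control and 7962.5 to 8863.5 FPKM in si-*Fndc1*, and of these 6 rose and 5 fell. The 15 tested hepatocyte transcripts of a list of 16 all rose in si-*Fndc1*, their summed level being 0.0016 to 6.95 FPKM in si-Control and 58.8 to 200.4 FPKM in si-*Fndc1*. Their part in the results below was not tested. Summed levels were at most 0.0521 FPKM for 5 adipocyte markers and 0.292 FPKM for 4 endothelial markers in any library, and at most 1.17 FPKM for 4 immune and 4.20 FPKM for 5 cardiomyocyte markers. Of 5 proliferation markers 2 rose, and their summed level was at most 23.0 FPKM.

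Of the 10 genes, 2 rose in si-*Fndc1*, namely *Cryab* and *Hspb3*, and 0 fell. Across all tested genes 34.4% passed an adjusted p of 0.05, with 17.3% higher and 17.2% lower in si-*Fndc1*, so that the 20.0% of the 10 genes that rose was near the background. At an unadjusted p under 0.05, 3 of the 10 passed, with *Hspb6* as the third, and at least 34.4% of all tested genes did. The median log2 fold change of the 10 genes was 0.10, against 0.00 over all tested genes, and 8 values were above zero and 2 below. In these bulk libraries a change in the number of cells that express a gene and a change in transcript per cell cannot be told apart.

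Among the sHSPs found in many stressed tissues, *Cryab* was the gene that rose. *Cryab* (ENSMUSG00000032060, chromosome 9, bases 50662625 to 50667936 on the plus strand as the table lists them, with no genome build named) encodes alpha-B-crystallin, a lens crystallin that is also a major sHSP of muscle. Its level was 80.3, 77.6, 81.2, 82.2 and 84.5 FPKM in si-Control and 106, 110.3, 111, 99.3 and 99.6 FPKM in si-*Fndc1*. Every si-*Fndc1* library was above every si-Control library, and no other of the 10 genes had groups that did not overlap in FPKM, against 25.1% of all tested genes. The means were 81.2 ± 2.51 and 105 ± 5.52 FPKM (SD, n = 5) (1.3-fold). The log2 fold change was 0.38 with a 95% confidence interval from 0.29 to 0.47 (SE 0.04, adjusted p = 9.06e-05 by edgeR), and the two-sided exact permutation test of the FPKM means gave p = 0.00794, the smallest that 5 against 5 libraries allow. The lens markers *Cryaa*, *Cryba1*, *Crygs* and *Mip* had no reads in any library.

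*Hspb1* (ENSMUSG00000004951), which encodes HSP27 in humans and HSP25 in mice and binds actin, was the most abundant sHSP transcript. Its levels were 269.6, 281, 276, 259 and 264 FPKM in si-Control and 261, 276, 271, 277 and 273 FPKM in si-*Fndc1*. The groups overlapped across nearly their whole range, and the log2 fold change was 0.02 with an interval from -0.05 to 0.09 (adjusted p = 0.735, edgeR). This was the narrowest interval among the 10 genes, with coefficients of variation of 3.28% and 2.40% within the groups.

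*Hspb6* (ENSMUSG00000036854) encodes HSP20, a sHSP best known from smooth and cardiac muscle. Its levels were 6.74, 5.70, 6.01, 6.07 and 6.19 FPKM in si-Control and 7.07, 6.23, 7.13, 7.30 and 6.28 FPKM in si-*Fndc1*. In si-*Fndc1* 3 libraries were above all of si-Control, and the other 2 lay within its range. The log2 fold change was 0.16 with an interval from 0.01 to 0.31 (adjusted p = 0.103, edgeR), which did not pass the test. The 5′ end of *Hspb6* shares 115 bases with the opposite gene *Proser3*, which had 165 to 302 counts per library against 903 to 1344 for *Hspb6*.

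The sHSPs with expression largely limited to heart and skeletal muscle are *Hspb2*, *Hspb3* and *Hspb7*. HSPB2 binds the myotonic dystrophy kinase DMPK, HSPB3 forms a complex with HSPB2 in differentiating muscle, and HSPB7 binds filamin C. *Hspb3* (ENSMUSG00000051456, chromosome 13, bases 113799432 to 113800212 on the minus strand in the table) was the least abundant of the 10 genes, at 3.26, 3.37, 2.82, 3.15 and 2.995 FPKM in si-Control and 4.56, 3.36, 4.64, 5.31 and 3.80 FPKM in si-*Fndc1*. The si-*Fndc1* library 2 lay just under the highest si-Control library, and the other 4 were above all of si-Control. The log2 fold change was 0.48 with an interval from 0.19 to 0.78 (SE 0.13, adjusted p = 0.0169 by edgeR), and the exact permutation test gave p = 0.0159, which is not adjusted. The counts behind it were 174 to 216 in a si-Control library and 186 to 331 in a si-*Fndc1* library. Once trends with GC content and transcript length were removed the call was lost (log2 fold change 0.26, adjusted p = 0.145, edgeR).

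*Hspb2* (ENSMUSG00000038086) had 51.2, 53.7, 56.8, 53.0 and 52.3 FPKM in si-Control and 50.8, 47.8, 54.2, 55.45 and 53.3 FPKM in si-*Fndc1*. The groups overlapped, with a log2 fold change of -0.02 and an interval from -0.13 to 0.08 (adjusted p = 0.759, edgeR). *Hspb7* (ENSMUSG00000006221) had 9.06, 7.24, 7.84, 7.89 and 7.72 FPKM in si-Control and 7.25, 7.54, 8.19, 6.99 and 6.20 FPKM in si-*Fndc1*. Its si-Control library 1 was the highest of all and 2 si-*Fndc1* libraries were the lowest, yet the log2 fold change of -0.13 (interval -0.31 to 0.06, adjusted p = 0.271, edgeR) did not pass the test.

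**Figure D1:**
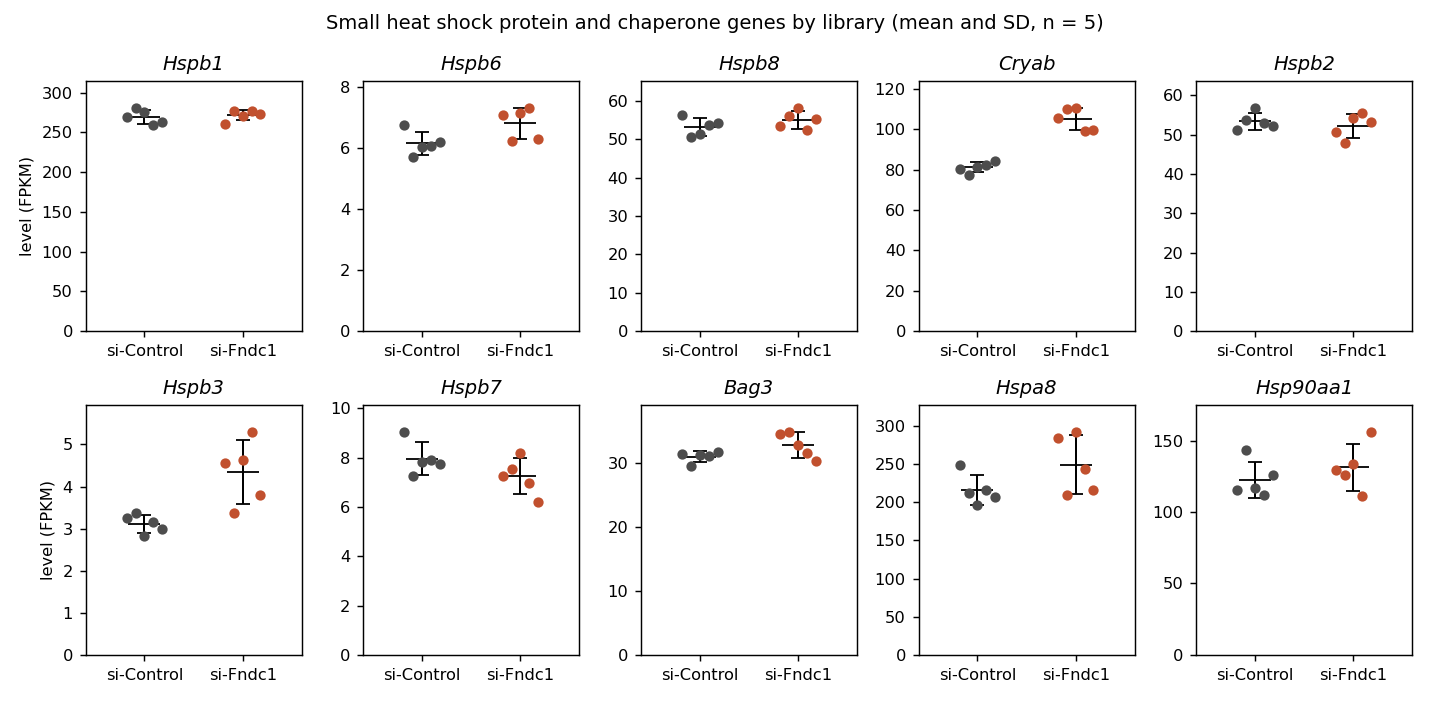
Level (FPKM, vertical axis from 0, a separate scale for each gene) of the 10 genes in every library, si-Control in grey and si-*Fndc1* in orange, with the mean and SD over 5 libraries. The 5 si-*Fndc1* libraries of *Cryab*, between 99.3 and 111 FPKM, lie above its 5 si-Control libraries, between 77.6 and 84.5 FPKM, while the groups of the other 9 genes overlap.

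*Hspb8* and *Bag3* encode the sHSP and the co-chaperone of the complex that hands damaged filament proteins to autophagy. *Hspb8* (ENSMUSG00000041548) had 56.2, 50.5, 51.2, 53.6 and 54.2 FPKM in si-Control and 53.4, 55.9, 58.1, 52.2 and 55.2 FPKM in si-*Fndc1*, and the log2 fold change was 0.06 with an interval from -0.03 to 0.15 (adjusted p = 0.314, edgeR). Only the si-*Fndc1* library 3 was above all si-Control libraries. *Bag3* (ENSMUSG00000030847) had 31.4, 29.4, 31.3, 31.0 and 31.7 FPKM in si-Control and 34.6, 34.9, 32.7, 31.6 and 30.3 FPKM in si-*Fndc1*, where libraries 1, 2 and 3 were above all of si-Control. Its log2 fold change was 0.09 with an interval from -0.01 to 0.19 (adjusted p = 0.139, edgeR). *Bag3* passed the test after correction for GC content and length (log2 fold change 0.16, adjusted p = 0.0301) and when si-*Fndc1* library 5 was left out (0.12, adjusted p = 0.0367).

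*Hspa8*, which encodes the constitutive HSP70 protein HSC70, and *Hsp90aa1*, which encodes the stress-inducible cytosolic HSP90, were among the 3 most abundant of the 10 transcripts and, in both groups, varied more between libraries than *Cryab* or *Hspb1*. *Hspa8* (ENSMUSG00000015656) had 248, 212, 196.5, 216 and 207 FPKM in si-Control and 284, 209, 293, 244 and 216 FPKM in si-*Fndc1*. The si-*Fndc1* libraries 1 and 3 were above all others, and the other 3 lay within the si-Control range. The log2 fold change was 0.21 with an interval from -0.01 to 0.44 (adjusted p = 0.132, edgeR), so that a rise of the size seen for *Cryab* lay inside the interval but was not detected against this spread. *Hsp90aa1* (ENSMUSG00000021270) had 115, 143, 117, 112 and 125.5 FPKM in si-Control and 129, 125.6, 133, 111 and 156 FPKM in si-*Fndc1*. Its groups overlapped, with the lowest and the highest library both in si-*Fndc1*, and the log2 fold change was 0.11 (interval -0.09 to 0.30, adjusted p = 0.394, edgeR). The coefficient of variation within si-*Fndc1* was 17.6% for *Hspb3*, 15.4% for *Hspa8* and 12.4% for *Hsp90aa1*, against 2.40% to 10.1% for the other 7 genes.

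Over all tested genes with a known transcript GC content, the log2 fold change fell as GC content rose (Spearman's rho -0.523 across 11185 genes, a description across genes that share the same libraries). Transcript GC content ran from 43.7% for *Hsp90aa1* to 61.7% for *Hspb1* among the 10 genes. After each library's trend with GC content and length was removed the correlation was -0.00637, and 2 of the 10 genes rose, *Cryab* and *Bag3*, with 0 falling, against 11.3% rising and 11.4% falling among the 11185 genes. *Cryab* then had a log2 fold change of 0.29 with an interval from 0.17 to 0.41 (adjusted p = 0.00335, edgeR). The corrected intervals of *Hspb1* (0.01 to 0.13), *Hspb6* (0.03 to 0.33) and *Hspa8* (0.02 to 0.46) also lay above zero. These genes did not pass the test (adjusted p = 0.0742, 0.08 and 0.109, edgeR). The intervals are not adjusted for the number of genes. At least the 11.3% of the 11185 genes that were called as rising had such an interval, and the full share was not taken. *Hsp90aa1*, at 0.11 before and -0.06 after, and *Hspb8*, at 0.06 before and -0.01 after, changed sign and did not pass the test in either fit.

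**Figure D2:**
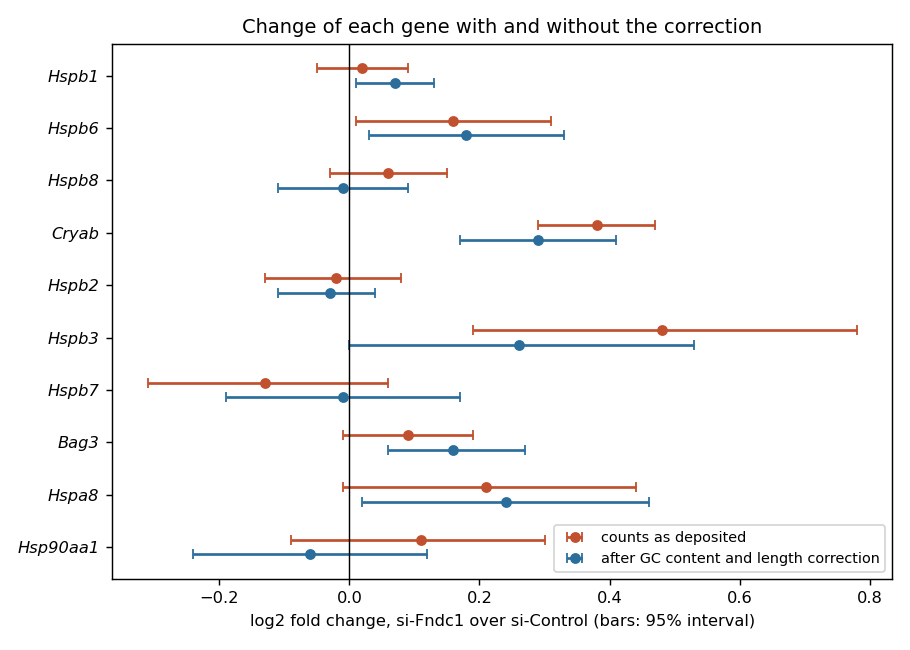
Log2 fold change of si-*Fndc1* over si-Control (horizontal axis) for the 10 genes, with 95% confidence intervals, from the counts as deposited (orange) and after correction for GC content and transcript length (blue). The interval of *Cryab* lies above zero in both, from 0.29 to 0.47 and from 0.17 to 0.41, as does that of *Hspb6*, from 0.01 to 0.31 and from 0.03 to 0.33. After correction the intervals of *Hspb1*, *Bag3* and *Hspa8* also lie above zero. Intervals are not adjusted for the number of genes, and at least 11.3% of the 11185 genes had a corrected interval above zero. The interval of *Hspb1* is the narrowest.

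As levels per length, the 10 transcripts formed a wide ladder. In si-Control the order was *Hspb1*, *Hspa8*, *Hsp90aa1*, *Cryab*, *Hspb2*, *Hspb8*, *Bag3*, *Hspb7*, *Hspb6* and *Hspb3*, and all neighbours except *Hspb2* and *Hspb8* had ranges over the 5 libraries that did not overlap. In si-*Fndc1* the ranges of *Hspb1* and *Hspa8*, of *Hspb2* and *Hspb8*, and of *Hspb7* and *Hspb6* overlapped, while *Cryab* stayed between *Hsp90aa1* and the pair of *Hspb2* and *Hspb8* with no overlap on either side. The 7 sHSPs together amounted to 465.2 to 482.1 FPKM in si-Control and 489.7 to 513.5 FPKM in si-*Fndc1*. Of this sum, *Hspb1* made up between 55.7% and 58.7% in si-Control and between 52.7% and 55.0% in si-*Fndc1*. *Cryab* made up between 16.2% and 17.9%, and between 19.7% and 21.7%. Both shares had groups that did not overlap, *Hspb1* lower and *Cryab* higher in si-*Fndc1*, although the level of *Hspb1* itself did not pass the test. Shares of the same sum are tied to each other, so the lower share of *Hspb1* is no separate result. FPKM summed over all genes was also higher in si-*Fndc1* (325534.4 to 347900.6) than in si-Control (300978.5 to 320728.2). The ratios within a library that follow do not depend on that scale, but they come from FPKM without the correction for GC content and length. Transcript GC content was 61.7% for *Hspb1*, 59.5% for *Hspb2*, 53.7% for *Cryab* and 51.5% for *Hspb3*. With the correction, the log2 fold change of *Hspb3* was 0.26 in place of 0.48, and that of *Cryab* 0.29 in place of 0.38. That of *Hspb1* was 0.07 in place of 0.02, and that of *Hspb2* -0.03 in place of -0.02. The ratios were not recomputed with the correction, and the part of GC content in them was not tested.

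Ratios of the levels of partner or paralog genes were taken within each library for 5 pairs, which were chosen after the values of single genes had been seen, so that they are given without a test. *Cryab* and *Hspb2* lie head to head on chromosome 9 and share 1030 bases in the table's coordinates. This stretch is most of *Hspb2*, which runs from base 50662378 to base 50663654. No source used here gives the strand setting of the counting, so it is not known whether reads in the shared stretch were counted for either gene or for neither. The ratio of *Cryab* to *Hspb2* was 1.57, 1.45, 1.43, 1.55 and 1.61 over the si-Control libraries and 2.08, 2.31, 2.04, 1.79 and 1.87 in si-*Fndc1*. All si-*Fndc1* libraries were above all si-Control libraries, and the mean log2 ratio was 0.60 ± 0.08 and 1.01 ± 0.14 (SD, n = 5). The level of *Cryab* thus differed between groups while that of its neighbour on the opposite strand stayed within 47.8 to 56.8 FPKM in all 10 libraries.

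For the subunits of the muscle sHSP complex, the ratio of *Hspb2* to *Hspb3* was 15.7, 15.9, 20.2, 16.8 and 17.5 in si-Control and 11.1, 14.2, 11.7, 10.5 and 14.0 in si-*Fndc1*. The si-*Fndc1* values were all lower, with mean log2 ratios of 4.10 ± 0.14 and 3.61 ± 0.20 (SD, n = 5). The ratio of *Hspb8* to *Bag3* lay between 1.64 and 1.79 in si-Control and between 1.54 and 1.82 in si-*Fndc1*, and the ranges overlapped throughout, with a difference in mean log2 ratio of -0.03. The ratio of *Hspb1* to *Cryab*, whose products form mixed oligomers, lay between 3.12 and 3.62 in si-Control and between 2.44 and 2.79 in si-*Fndc1*, without overlap. It holds the same *Cryab* levels as the ratio of *Cryab* to *Hspb2*, so these ratios are not separate results. The ratio of *Hsp90aa1* to its constitutive paralog *Hsp90ab1* lay between 0.172 and 0.220 in si-Control and between 0.184 and 0.270 in si-*Fndc1*, with overlap.

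**Figure D3:**
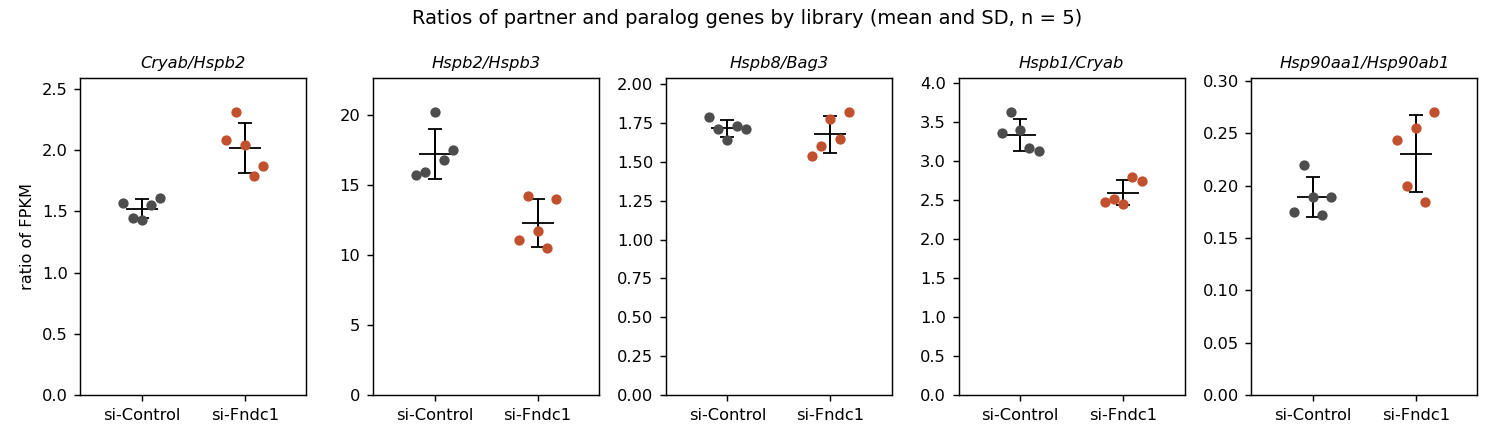
Ratio of FPKM (vertical axis from 0, a separate scale for each pair) of 5 gene pairs in every library, si-Control in grey and si-*Fndc1* in orange, with the mean and SD over 5 libraries. The groups do not overlap for *Cryab*/*Hspb2*, *Hspb2*/*Hspb3* and *Hspb1*/*Cryab*, and they overlap for *Hspb8*/*Bag3* and *Hsp90aa1*/*Hsp90ab1*. The FPKM values are not corrected for GC content.

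The rest of the chaperone network was read from 10 lists that held 95 different genes, of which 91 were tested. In si-*Fndc1* 32 rose and 13 fell, that is 35.2% and 14.3% against the 17.3% and 17.2% of all tested genes, and the median log2 fold change was 0.08. After correction for GC content and length 13 of 90 rose and 6 fell, that is 14.4% and 6.67% against 11.3% and 11.4% of the genes tested in that fit. Before that correction, the called rises above 0.45 on the log2 scale were those of *Pfdn5*, *Pfdn4*, *Cacybp* and *Hspb11*.

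The chaperonins and prefoldin are ATP-driven and ATP-free folding complexes for actin, tubulin and mitochondrial proteins. Their list held more rises than any other list, with 12 of 16 genes higher, 0 lower and a median log2 fold change of 0.25. Prefoldin subunit *Pfdn5* had 36.6 to 44.4 FPKM in si-Control and 51.1 to 56.4 FPKM in si-*Fndc1*, and rose (log2 fold change 0.47, SE 0.05, adjusted p = 0.000103, edgeR) and remained called after GC correction (0.39). *Pfdn4* rose by 0.46 and was not called after correction (0.13, adjusted p = 0.178, edgeR). After correction 5 of the 16 rose, with a median of 0.11.

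Of 15 core targets of the heat shock response, the genes most directly induced by HSF1, 7 rose and 2 fell, with a median of 0.11. After GC correction 3 rose and 2 fell, with a median of 0.03. *Cacybp*, a ubiquitin ligase adaptor that binds calcyclin, rose by 0.49 and the mitochondrial co-chaperonin *Hspe1* by 0.30, while *Hsp90ab1* fell by 0.17 and the HSP90 immunophilin *Fkbp4* by 0.22. All of these stayed called after GC correction, at 0.16 for *Cacybp*, 0.16 for *Hspe1*, -0.20 for *Hsp90ab1* and -0.15 for *Fkbp4*. The inducible HSP70 genes *Hspa1a* (log2 fold change -0.17) and *Hspa1b* (-0.08), which are near-identical copies whose reads can be split between them, and *Dnajb1* (-0.03) did not pass the test. Among the heat shock factors and their binding protein *Hsbp1* (4 genes tested), *Hsf2* rose by 0.26 (adjusted p = 0.0039, edgeR) and *Hsf1* had a log2 fold change of 0.00 (adjusted p = 0.998). After GC correction *Hsf2* was at 0.15 and just passed the test (adjusted p = 0.0482, edgeR). *Hsf1* was then at 0.24, with an interval from -0.03 to 0.52, and did not pass (adjusted p = 0.196, edgeR).

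Other HSP70 and HSP110 genes were mixed, with 2 of 14 higher, 2 lower and a median of -0.09. *Hspa13* rose by 0.29 and *Hspa4*, a nucleotide exchange factor of the HSP110 type, by 0.14, while the endoplasmic reticulum chaperone *Hyou1* fell by 0.27 and *Hspa2* by 0.22. After GC correction 0 genes of this list rose (*Hspa13* 0.10, adjusted p = 0.0957, and *Hspa4* 0.07, adjusted p = 0.0929), *Hspa2* was not called (-0.21, adjusted p = 0.0909) and *Hyou1* was (-0.12, adjusted p = 0.00663, edgeR). Of the 3 other HSP90 genes, *Hsp90b1*, the endoplasmic reticulum paralog GRP94, rose by 0.23, a call lost after GC correction (0.07, adjusted p = 0.0657, edgeR), and *Hsp90ab1* fell in both fits. Among 20 J-domain proteins, the HSP40 partners that deliver clients to HSP70, 5 rose and 1 fell. The largest rises were those of the endoplasmic reticulum protein *Dnajb9* (0.37) and the cytosolic *Dnaja2* (0.26), and *Dnajb11* fell by 0.11. After GC correction *Dnajb9* was at 0.02 (adjusted p = 0.809) and *Dnaja2* at 0.00 (adjusted p = 0.928, edgeR), so that both calls were lost.

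Of 7 BAG and nucleotide exchange genes other than *Bag3*, 0 rose and 3 fell. *Bag6*, which guards newly made membrane proteins, had 42.2 to 43.7 FPKM in si-Control and 29.6 to 32.8 FPKM in si-*Fndc1*, and fell (log2 fold change -0.44, SE 0.03, adjusted p = 1.55e-05, edgeR), and *Sil1* fell by 0.20. After GC correction 1 of the 7 fell, *Bag6* at -0.16, and *Sil1* was not called (-0.10, adjusted p = 0.307, edgeR). Of 17 HSP90 co-chaperones 6 rose and 5 fell, with *Ptges3* (p23, 0.45) and *Cdc37l1* (0.22) the largest rises and *Fkbp8* (-0.33) and the myosin chaperone *Unc45a* (-0.26) the largest falls. The calls of *Ptges3* (0.16, adjusted p = 0.419), *Fkbp8* (-0.02, adjusted p = 0.733) and *Unc45a* (0.04, with the sign turned, adjusted p = 0.817, edgeR) were lost after GC correction. *Unc45b*, the muscle form of this myosin chaperone, had 14.7 to 16.0 FPKM and 14.2 to 15.5 FPKM and did not pass the test (-0.06, adjusted p = 0.253, edgeR).

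The partners and clients of the *Bag3* and *Hspb8* complex were 10 genes, of which 3 rose and 1 fell. *Flnc*, the Z-disc filamin that this complex clears, had 76.9 to 88.9 FPKM in si-Control and 54.9 to 71.5 FPKM in si-*Fndc1*, and fell (log2 fold change -0.41, SE 0.07, adjusted p = 0.00123, edgeR), with no overlap of the groups, and was not called after GC correction (-0.11, adjusted p = 0.133). The lysosomal membrane gene *Lamp2* and *Tardbp*, which encodes TDP-43, each rose by 0.18, and neither was called after correction. *Stub1*, the ubiquitin ligase CHIP of the complex, had a log2 fold change of -0.02 (adjusted p = 0.754) and 0.17 after correction (adjusted p = 0.00773, edgeR). Among sHSP genes outside the 10, *Hspb11* rose by 0.58 (adjusted p = 0.00761, edgeR) at 3.48 to 5.28 FPKM and 5.65 to 8.61 FPKM, and is also known as *Ift25*, a subunit of the intraflagellar transport machinery. Its call was lost after GC correction (0.27, adjusted p = 0.142, edgeR). *Hspb9*, *Cryaa* and *Odf1* were below the level needed for a test.

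**Figure D4:**
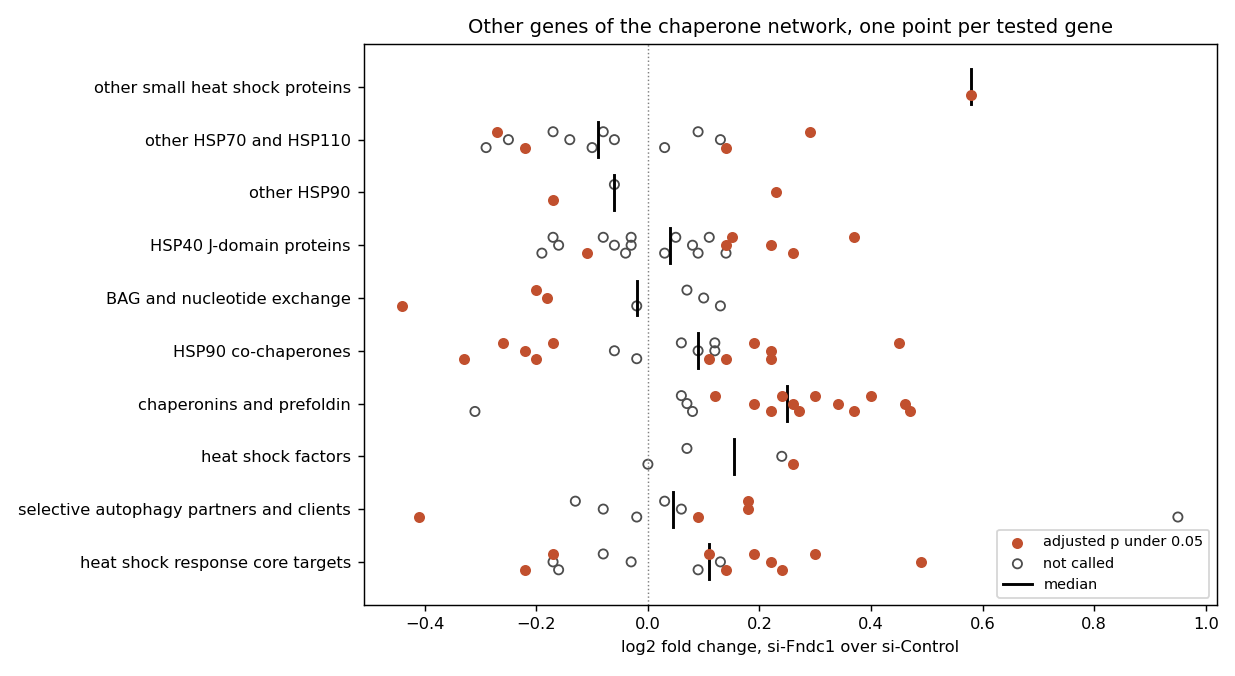
Log2 fold change of si-*Fndc1* over si-Control (horizontal axis) for each tested gene of 10 lists of the chaperone network, filled where the adjusted p was under 0.05, with the list's median as a black bar. The values are not corrected for GC content and length. Of the chaperonins and prefoldin 12 of 16 points are filled, all to the right of zero, against 17.3% of all tested genes that rose. Their median of 0.25 compares with 0.00 over all tested genes. After correction 5 of the 16 rose, with a median of 0.11.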

How the data were processed

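RNA of 10 C2C12 libraries was sequenced, after poly(A) selection per the series description, and condition and replicate number were taken from the labels. The authors deposited raw read counts per gene with an FPKM value beside each count, listed as 0.0001 where no read was counted. The study's methods name TopHat 2, mm10, htseq-count and DESeq2, the series description names STAR and mm9, and the submitters' processing notes list GRCm39, FastQC and cutadapt 1.9. The methods speak of fewer libraries than the table holds and do not say which, so all 10 were used. The table names no build, and the strand setting of the counting and the making of the FPKM values are not given in the sources used here.

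Counts were tested with edgeR 4.0.16 in R 4.3.3 (quasi-likelihood test, TMM normalization, no replicate term) for the 13548 genes whose FPKM averaged 0.5 or more, with Benjamini-Hochberg adjustment over all of them. FPKM means were compared by two-sided exact permutation tests in scipy 1.17.1. Trends of log counts (0.5 added) with transcript length and GC content were fitted per library by Huber regression on splines (5 degrees of freedom) for the 11185 tested genes (82.6%) with both values, GC content coming from NCBIM37 transcripts matched by gene identifier, and were used as offsets. Alternatives were DESeq2 1.42.0, RLE factors, no filter, a minimum of 5 FPKM, limma 3.58.1 on log2(FPKM + 1) and log2(FPKM + 0.1), a replicate block, and leaving out each library. In a chi-square comparison the 20 pairs of libraries within a group all differed beyond sampling noise (at least 41.52 per degree of freedom). On simulated data for this comparison, 200 of 13548 genes were changed. There edgeR recovered 81 of 100 genes changed by a fold of 2 and 29 of 100 changed by a fold of 1.3, with 7 false calls. The share called in the data, 34.4%, was larger than the share changed in the simulation, so these recoveries do not measure the power in the data.

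The 10 genes and the lists were chosen with earlier results of these data known, so their counts are no independent evidence. The text names all 10 genes, *Fndc1*, and from each list the called genes with the largest changes, at most 2 per direction. Other genes named, such as *Hsf1*, *Hspa1a*, *Stub1* and *Unc45b*, were chosen after their values were seen. All 34 values and ratios tested for a library far from the others of its group by Dixon's criterion were within it.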

Additional observations from a re-analysis of the deposited data

How the results depend on the processing

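*Cryab* was called in all 20 other settings, with log2 fold changes of 0.29 to 0.40 and adjusted p of at most 0.0338. With the FPKM minimum raised to 5, 1 of the 10 genes rose, since *Hspb3* was then not tested. Leaving out 1 library gave 2 to 3 rises, with *Bag3* as the third without si-*Fndc1* replicate 5. CPM after TMM normalization put the number of genes with groups that did not overlap at 2, and leaving out 1 library gave 1 to 2. The share of all tested genes was not taken in these settings, so these counts have no background. In the wider lists the correction for GC content and length left 13 rises and 6 falls, and leaving out 1 library gave 29 to 31 rises and 8 to 11 falls, with 8 falls without si-*Fndc1* replicate 1. Directions turned for *Hspb8* (-0.01 with the GC correction), *Hsp90aa1* (-0.06) and *Unc45a* (0.04), and for *Hspb2* without si-Control replicate 3 (0.00) or si-*Fndc1* replicate 2 (0.01, in a range of -0.04 to 0.01 when 1 library was left out). *Hspa2*, *Unc45a*, *Sil1* and *Hsp90ab1* lost their calls in 5 or more settings each, and the cause was not tested. Testing without a filter, RLE factors, DESeq2 and limma on log2 FPKM changed no call of the 10 genes.

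Same-numbered libraries did not deviate together (correlations of -0.0427 to 0.0548), so the replicate number was not used to pair them. With the replicate block 1 of the 10 genes rose, *Hspb3* having an adjusted p of 0.0609, and the wider lists had 26 rises and 7 falls. With the block and the GC correction together, 1 of the 10 genes and 8 of the wider lists rose and 5 of the latter fell, with *Hspb8* at -0.01, *Hsp90aa1* at -0.06 and *Unc45a* at 0.05. Of the 10 genes *Hspb3* had the lowest counts, 174 to 331 per library, and the effect of depth was not tested.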

Other observations

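*Hsp25-ps1*, a processed pseudogene of *Hspb1* on chromosome 13, had 46 to 131 counts per library and changed by 0.12 on the log2 scale (adjusted p = 0.775, edgeR), beside 17584 to 23509 counts of *Hspb1*. Reads that match both copies were not counted here. The 3 SNORD14 genes inside *Hspa8* had 1 to 29 counts each. *Synpo2*, which links the *Bag3* complex to actin and was named after its values were seen, had 1.20 to 7.03 FPKM in si-Control and 2.07 to 13.8 FPKM in si-*Fndc1*, at 0.95 on the log2 scale (SE 0.58, adjusted p = 0.233, edgeR).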
